A study of Mus musculus with 2 samples.

Results

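Expression of 10 IL-1 family genes, taken by name, was followed across the cell types of regenerating mouse muscle: the ligands Il1a, Il1b, Il18 and Il33, the receptor antagonist Il1rn, the receptor chains Il1r1, Il1rap and Il1rl1, the decoy receptor Il1r2 and the IL-18 binding protein Il18bp. All 10 were among the 19169 genes of the deposited single-cell table, which held 13432 cells. The cells came from gastrocnemius muscle injured by injection of cardiotoxin (CTX), a snake venom toxin that destroys myofibers and spares the stem cells that rebuild them, and were taken on day 14. One library was from WT mice and the other from mice lacking Gsdme in every cell (KO). Both were injured, and no uninjured library was analysed here. The study used male mice, 5 per genotype, with C57BL/6J animals as WT. The sources used here give no age for these libraries and do not say whether the mice of a genotype were pooled. Each genotype was 1 library, so no difference between them has a replicate check or a p-value, and the intervals in parentheses are exact 95% intervals that cover counting error only.

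IL-1 family ligands are cytokines whose receptors carry a Toll/IL-1 receptor domain and signal through MyD88 and NF-κB. IL-1α and IL-1β share the receptor IL-1R1 with its accessory chain IL-1RAP, the antagonist encoded by Il1rn occupies IL-1R1 without signalling, and IL-1R2 binds ligand but lacks a signalling domain. IL-33 acts through ST2, the product of Il1rl1, with the same accessory chain, and IL-18 acts through the chains encoded by Il18r1 and Il18rap and is held in check by Il18bp. IL-1β and IL-18 are made as precursors that inflammasome caspases cut, whereas IL-1α and IL-33 are classed as alarmins, which cells release when damaged. In muscle, IL-33 from stromal cells is known to act on regulatory T cells during repair.

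Several of these genes are neighbours. In GRCm38, Il1r2 (chr1:40074079-40125231), Il1r1 (chr1:40225080-40317257), Il1rl2, Il1rl1 (chr1:40429570-40465415), Il18r1 and Il18rap stood in this order on the plus strand of chromosome 1, with 136 bp between Il1rl1 and Il18r1. Il1a (chr2:129299610-129309972) and Il1b (chr2:129364570-129371139) lay on the minus strand of chromosome 2, 54597 bp apart, and Il1rn (chr2:24336853-24351494) lay on the plus strand of the same chromosome. Il33 was at chr19:29925114-29960718, Il18 at chr9:50554827-50581840, Il1rap at chr16:26581704-26730117 and Il18bp at chr7:102014885-102018690. RefSeq promoters of GRCm38.p6 matched all 10 genes, with 15 promoters in all. The 150 bases upstream of a RefSeq start are shown for Il1a, Il1b and Il1rn, because these 3 had the largest log2 ratios between the libraries over all cells. Capitals mark the letters TATAAA, searched on the gene's strand, and TGANTCA, the core of an AP-1 site, searched on both strands. Only promoters with such a match are shown. Il1rn had further RefSeq promoters, at later starts, that held neither run of letters.
Il1a, chr2:129309973-129310122, minus strand: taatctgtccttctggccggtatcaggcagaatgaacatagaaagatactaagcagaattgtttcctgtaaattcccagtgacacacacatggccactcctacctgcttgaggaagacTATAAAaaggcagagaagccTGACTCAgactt
Il1b, chr2:129371140-129371289, minus strand: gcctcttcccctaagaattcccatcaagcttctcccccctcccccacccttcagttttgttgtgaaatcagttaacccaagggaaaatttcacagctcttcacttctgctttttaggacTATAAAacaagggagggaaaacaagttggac
Il1rn, chr2:24336710-24336859, plus strand: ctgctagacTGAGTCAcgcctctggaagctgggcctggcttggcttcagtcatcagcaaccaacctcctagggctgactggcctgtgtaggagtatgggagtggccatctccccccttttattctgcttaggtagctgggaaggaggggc

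TATAAA began 32 bases upstream of the start in Il1a and 31 in Il1b. TGANTCA began 12 bases upstream in Il1a and 141 in the Il1rn promoter shown. In the full windows of 250 bases before to 50 after a start, TATAAA was found in 4 of the 15 promoters, those of Il1a and Il1b and both of Il33, and TGANTCA in 2. Over all 32851 RefSeq promoters of that length the shares were 8.32% and 7.81%. These matches describe letters, and nothing measured here bears on the binding of a factor.

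The library labelled WT held 6354 cells with a median of 5740 unique molecular identifiers (UMIs) per cell, and the library labelled KO held 7078 cells with a median of 5962.5. Expression is given in CPM, the UMIs of a gene summed over the cells of a type, per 1000000 UMIs of those cells. In each pair of values below the library labelled WT comes first and the library labelled KO second, and a log2 ratio is KO over WT. Clusters were called after cell types from marker genes, which gave 12 types that held 30 cells or more per library, and small groups of neutrophil-like (23 and 32 cells), group 2 innate lymphoid cell-like (ILC2-like, 19 and 34) and mast-like cells (22 and 20). The neutrophil-like cells also carried the monocyte genes Ly6c2 and Plac8 at 572 and 2187 CPM. A cluster of 107 and 140 cells led by Lyz1 and Retnla took no name, since the monocyte genes Ly6c2 and Chil3 were at 0 there while Ccr2 and Fn1 reached 431 and 3661 CPM. Gsdme RNA was at 5.03 and 4.65 CPM over all cells (225 and 237 UMIs), so it did not check the labels, and 4 barcodes occurred in both libraries.

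Il1b, the ligand best known as a product of the inflammasome, was a myeloid transcript in both libraries, with a higher level under the KO label in each named myeloid group and in the Lyz1 Retnla cluster. In dendritic-like cells it was at 1517 CPM (1439.9 to 1596) and 2488 CPM (2397 to 2583), a log2 ratio of 0.71 (0.62 to 0.81). Macrophage-like cells held 243 CPM (229 to 258) and 1038 CPM (1010.0 to 1066), a log2 ratio of 2.09 (2.0 to 2.19). In the Lyz1 Retnla cluster it was at 782 CPM (727 to 839) and 3896 CPM (3786 to 4008), a log2 ratio of 2.32 (2.21 to 2.43). The intervals of the libraries did not overlap in any of these 3 groups, and dendritic-like cells stood above the Lyz1 Retnla cluster in the library labelled WT and below it in the library labelled KO. Neutrophil-like cells held 41 and 361 UMIs, which is 346 and 2508 CPM and a log2 ratio of 2.86 (2.39 to 3.36). Among the 12 types, dendritic-like and then macrophage-like cells were clear of all others in both libraries. Of all Il1b UMIs, dendritic-like cells held 34.0% and 19.8%, macrophage-like cells 24.6% and 38.4% and the Lyz1 Retnla cluster 17.6% and 33.8%.

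More cells carried Il1b in the library labelled KO, and those that did carried more of it. After each cell was thinned to 1000 UMIs, 11% (8.85 to 13.6) and 23.4% (20.6 to 26.4) of macrophage-like cells kept an Il1b UMI, against 24.4% and 36.4% without thinning. In the Lyz1 Retnla cluster the thinned shares were 20.2% (12.6 to 29.8) and 68.5% (59.7 to 76.3), and in dendritic-like cells 35.1% (26.3 to 44.8) and 55.7% (46.5 to 64.7). Without thinning they were 37.4% and 81.4% and, in dendritic-like cells, 56.0% and 72.2%. Muscle stem cell-like (MuSC-like) cells, which should lack the gene, gave a thinned background of 0.422% and 0.840% at median depths of 6386 and 5470.5 UMIs, beside 5746 and 5726 in macrophage-like cells. The shares in myeloid groups lay well above that background. Macrophage-like cells with the transcript held on average 5.94 and 17.2 of its UMIs.

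**Figure D1:**
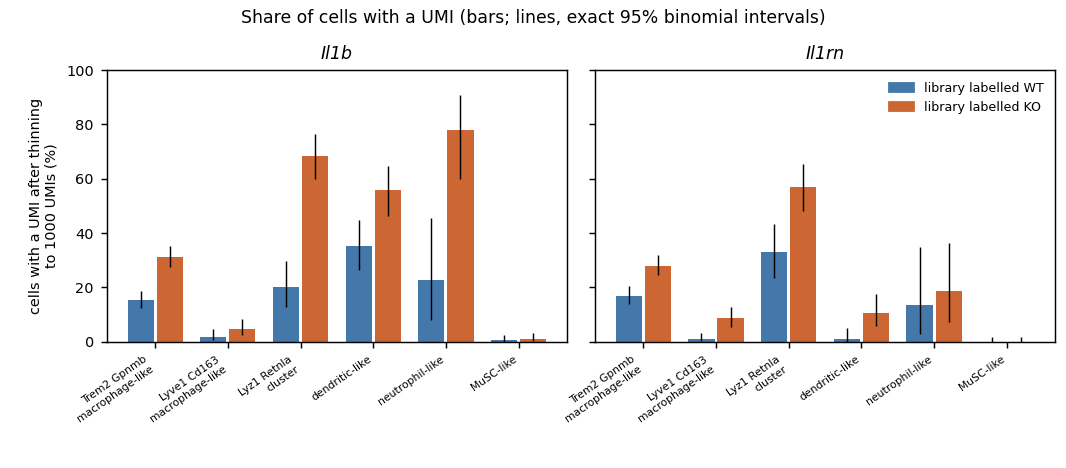
Share of cells (y axis, percent) that kept an Il1b UMI or an Il1rn UMI after thinning to 1000 UMIs, in myeloid groups and in MuSC-like cells as background, for the library labelled WT and the library labelled KO, with lines for exact 95% binomial intervals. The Il1b shares of the Lyz1 Retnla cluster are 20.2% and 68.5% with intervals that do not meet, and those of MuSC-like cells are 0.422% and 0.840%.

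Within macrophage-like cells the ligand was concentrated in 1 cluster. The cluster marked by Trem2 and Gpnmb, genes of lipid-handling macrophages, held Il1b at 326 CPM (306 to 346) and 1354 CPM (1318 to 1391), while the cluster marked by Lyve1 and Cd163, genes of tissue-resident macrophages, held 13.9 CPM (7.95 to 22.6) and 50.7 CPM (39.0 to 64.7). Their log2 ratios were 2.06 (1.96 to 2.15) and 1.87 (1.06 to 2.76), with overlapping intervals. A few cells weighed on some sums: 5 cells held 59.1% of the Il1b UMIs of the Lyz1 Retnla cluster and 34.8% of those of dendritic-like cells in the library labelled WT. Without the 5 highest cells of each library the log2 ratios were 3.28 in the Lyz1 Retnla cluster, 1.07 in dendritic-like cells and 2.29 in macrophage-like cells.

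In several types outside the myeloid groups Il1b rested on few cells. T-like cells held 1 and 95 UMIs, tenocyte-like cells 6 and 62 and Schwann-like cells 0 and 28, and 5 cells held 98.9%, 98.4% and 96.4% of those in the library labelled KO. In that library the summed level of 8 macrophage markers was 955 CPM in tenocyte-like cells with an Il1b UMI and 68.2 CPM in those without, and 2427 and 45.7 CPM in Schwann-like cells. Their part in these Il1b values was not tested. FAP-like cells (fibro-adipogenic progenitors, the stromal cells of muscle) held 2.65 CPM (1.84 to 3.68) and 1.93 CPM (1.35 to 2.67), with a UMI in 4 and 32 cells. The 5 highest cells held 100% and 25% of these UMIs, and without them 27 UMIs were left, all in the library labelled KO, so the direction turned. Endothelial-like cells held 11 and 17 Il1b UMIs in 6 and 17 cells. In pericyte-like cells Il1b was at 16.0 and 23.8 CPM, with a log2 ratio of 0.58 that was -0.10 without the 5 highest cells. An unnamed cycling cluster led by Top2a and Hist1h2ap went the other way at 791 and 296 CPM, and there 5 cells held 91.5% and 81.0% of the UMIs.

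Il1a, the alarmin that shares the receptor of Il1b, was nearly all in macrophage-like cells, which held 87.3% and 80.3% of its UMIs. Its level there was 22.1 CPM (17.9 to 27.0) and 48.7 CPM (42.9 to 55.1), a log2 ratio of 1.14 (0.80 to 1.5), with intervals that did not overlap. Macrophage-like cells were clear of the other 11 types under the KO label and of 9 under the WT label, where B-like and mature muscle-like cells had no Il1a UMI and limits up to 27.6 and 41.2 CPM. As with Il1b, the Trem2 Gpnmb cluster stood above the Lyve1 Cd163 cluster, at 29.1 and 60.3 CPM against 2.61 and 12.7 CPM. The Lyz1 Retnla cluster held 6 and 27 Il1a UMIs and dendritic-like cells 3 and 10. No Il1a UMI was found in T-like, MuSC-like or smooth muscle-like cells in either library, with upper limits between 2.09 and 8.24 CPM.

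Il1rn, the secreted antagonist, was highest in the same myeloid groups and higher in the same library. In macrophage-like cells it was at 266 CPM (251 to 282) and 484 CPM (465 to 503), a log2 ratio of 0.86 (0.76 to 0.96). The Lyz1 Retnla cluster held 539.7 CPM (494 to 588) and 1328 CPM (1265 to 1395), a log2 ratio of 1.30 (1.16 to 1.44). Dendritic-like cells held 44.6 CPM (32.3 to 60.0) and 127 CPM (107 to 150.1), a log2 ratio of 1.51 (1.01 to 2.04). In none of these 3 groups did the intervals of the libraries overlap, and among the 12 types macrophage-like and then dendritic-like cells were highest, the reverse of the order for Il1b. Dendritic-like cells were clear of the remaining types except, under the WT label, B-like and mature muscle-like cells with 1 UMI each. Of the macrophage-like clusters, the Lyve1 Cd163 cluster held 13 and 193 UMIs, which is 11.3 CPM (6.02 to 19.3) and 153 CPM (132 to 176) and a log2 ratio of 3.76 (2.95 to 4.69). The Trem2 Gpnmb cluster was at 358 and 589.9 CPM, with a log2 ratio of 0.72 (0.62 to 0.82). The intervals of these 2 ratios did not overlap. The thinned share of cells with Il1rn was 0.889% and 8.73% in the Lyve1 Cd163 cluster and 16.9% and 28.0% in the Trem2 Gpnmb cluster, against 4.27% and 19.5% and, in the latter, 38.2% and 53.2% without thinning. No MuSC-like cell kept an Il1rn UMI after thinning in either library, which allows shares up to 1.54% in each. In neutrophil-like cells Il1rn was at 160.4 and 181 CPM, within 1.5-fold, unlike Il1b. Tenocyte-like cells held 1 and 22 Il1rn UMIs, a log2 ratio of 4.72 (2.09 to 10.08), with 95.5% of the latter in 5 cells.

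Ligand and antagonist were found in the same macrophage-like cells more often than the product of their shares. After thinning, 23 of 715 cells in the library labelled WT held both Il1b and Il1rn UMIs, which is 3.22% (2.05 to 4.79) against a product of 1.31%. In the library labelled KO 83 of 851 did, 9.75% (7.84 to 12) against 5.22%. The products lay under the intervals in both libraries. They were taken over the Trem2 Gpnmb and Lyve1 Cd163 clusters together, and both genes were higher in the former. The part of this pooling in the excess was not tested. In the Lyz1 Retnla cluster of the library labelled KO, where most cells held each gene, the share with both was 40.8% against a product of 39.0%.

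**Figure D2:**
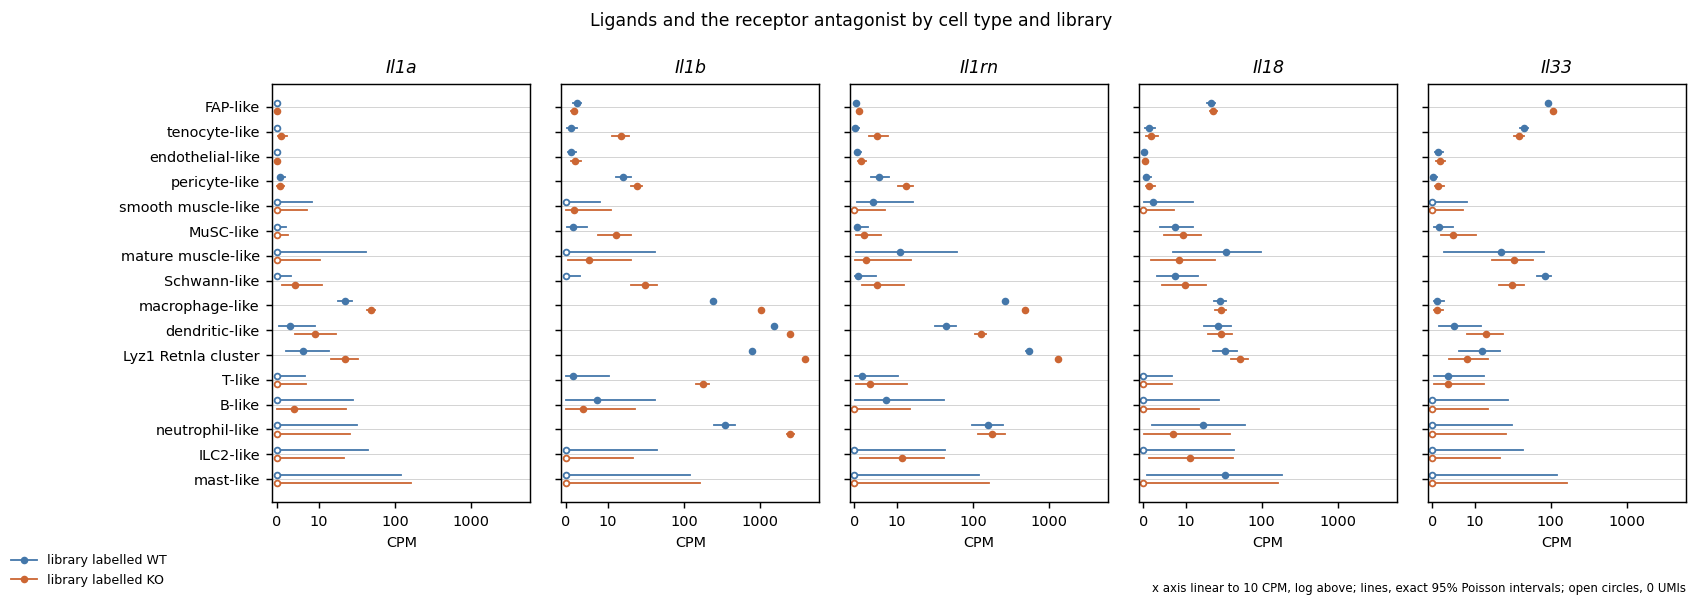
CPM of the 4 ligands and the antagonist (x axis, linear to 10 and logarithmic above) in each cell type and in the Lyz1 Retnla cluster, 1 colour per library, with lines for exact 95% Poisson intervals and open circles for 0 UMIs. Il1b, Il1rn and Il1a stand out in myeloid groups, Il33 in FAP-like, Schwann-like and tenocyte-like cells, and Il18 in macrophage-like, dendritic-like and FAP-like cells together.

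Il18, the other ligand cut by inflammasome caspases, did not follow Il1b. Macrophage-like cells held it at 28.3 CPM (23.5 to 33.8) and 29.1 CPM (24.6 to 34.1), a log2 ratio of 0.04 (-0.31 to 0.39). Dendritic-like cells were at 27.0 CPM (17.6 to 39.5) and 28.7 CPM (19.6 to 40.5) and FAP-like cells at 21.6 CPM (19.2 to 24.3) and 23.2 CPM (21.1 to 25.5). These 3 types overlapped in both libraries, so no order among them could be read. By number of UMIs most Il18 was stromal, since FAP-like cells held 53.6% and 57.0% of it and macrophage-like cells 23.0% and 19.9%. Within FAP-like cells it was concentrated in the cluster marked by Pi16 and Dpp4, genes of progenitor-like fibroblasts, at 74.6 CPM (64.8 to 85.4) and 79.7 CPM (71.0 to 89.1), with 209 and 309 UMIs in 36.3% and 38.3% of the cells before thinning and in 7.0% and 5.11% after. The cluster marked by Sfrp4 held 10.2 and 10.0 CPM, and that marked by Hsd11b1 and Mme 4.46 and 6.27 CPM. The 8 macrophage markers summed to 29.5 and 27.1 CPM in FAP-like cells with an Il18 UMI and 42.3 and 38.7 CPM in those without, beside 14180 and 14050 CPM in macrophage-like cells. In the Lyz1 Retnla cluster Il18 was at 33.1 CPM (22.6 to 46.7) and 51.7 CPM (39.7 to 66.1), a log2 ratio of 0.64 (0.01 to 1.31). MuSC-like cells were lower at 7.37 and 9.29 CPM with a thinned share of 0.844% and 0.840%. Endothelial-like cells, at 0.248 and 0.267 CPM and a thinned share of 0.0845% and 0.0867% at median depths of 4815 and 4593 UMIs, gave the lowest level above 0, and T-like cells had no Il18 UMI, which allows up to 6.78 and 6.87 CPM.

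Il33, the ligand of ST2, was a stromal transcript. FAP-like cells held 71.8% and 79.3% of its UMIs, at 92.0 CPM (86.9 to 97.3) and 106 CPM (101 to 111), a log2 ratio of 0.21 (0.10 to 0.31) that stayed within 1.5-fold. Tenocyte-like cells, the cells of tendon, held 44.7 CPM (39.0 to 51.0) and 38.6 CPM (32.9 to 45.1), below FAP-like cells in both libraries. Endothelial-like cells held 1.36 and 1.73 CPM and macrophage-like cells 1.15 and 1.15 CPM, and B-like cells had no UMI, which allows up to 27.6 and 14.8 CPM. Among FAP-like cells the Pi16 Dpp4 cluster was again highest, at 159.9 CPM (145 to 175) and 212 CPM (198 to 227). It was followed by the Hsd11b1 Mme cluster at 124 and 96.8 CPM, the Sfrp4 cluster at 63.9 and 80.8 CPM and the cluster marked by Clu and Cyp2f2 at 9.51 and 22.0 CPM. Neighbours in this order did not overlap in either library. The direction between the libraries was not shared by the clusters: the log2 ratio was 0.41 (0.24 to 0.58) in the Pi16 Dpp4 cluster, 0.34 (0.15 to 0.52) in the Sfrp4 cluster and -0.35 (-0.56 to -0.15) in the Hsd11b1 Mme cluster, each within 1.5-fold, and 1.21 (0.32 to 2.18) in the Clu Cyp2f2 cluster on 15 and 38 UMIs.

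Schwann-like cells, the glia of peripheral nerve, also held Il33. It was at 83.4 CPM (67.1 to 103) and 31.4 CPM (21.0 to 45.1) there, a log2 ratio of -1.41 (-2.07 to -0.79). These sums rested on few cells, as 5 cells held 66.7% and 89.7% of 90 and 29 UMIs, and without them the log2 ratio was -3.03 on 33 UMIs. Il33 also reached 198 and 329 CPM in an unnamed cluster led by Igha and Jchain, whose cells had median depths of only 810 and 932 UMIs.

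Il1r1, the signalling receptor of IL-1α and IL-1β, was carried by stromal, mural and muscle stem cells and hardly by the myeloid cells that held the ligands. FAP-like cells held 61.7% and 70.9% of its UMIs at 132 CPM (125 to 138) and 134 CPM (129 to 139), a log2 ratio of 0.03 (-0.06 to 0.11). Smooth muscle-like cells held 217 CPM (176 to 264) and 118 CPM (89.9 to 152), a log2 ratio of -0.88 (-1.37 to -0.40), so under the WT label they stood above FAP-like cells and under the KO label overlapped them. That cluster was led by the smooth muscle genes Acta2, Myh11 and Tagln but also by the pericyte genes Abcc9, Kcnj8 and Higd1b, at median depths of 1827 and 1753 UMIs, so it is not cleanly apart from pericyte-like cells. MuSC-like cells held 58.4 CPM (47.6 to 70.8) and 97.9 CPM (82.2 to 116), a log2 ratio of 0.75 (0.37 to 1.13), the opposite direction. Pericyte-like cells were at 47.1 and 49.2 CPM, endothelial-like cells at 28.4 and 25.7 CPM and tenocyte-like cells at 21.6 and 21.3 CPM, all within 1.5-fold. The pericyte-like cluster, at median depths of 12968 and 13064 UMIs, also carried endothelial markers. Their mean log2 fold over the other cells was 1.7 there, beside 2.69 for pericyte markers, so it is not cleanly apart from endothelial-like cells. T-like cells held 75.3 CPM (54.0 to 102) and 35.4 CPM (21.3 to 55.2), a log2 ratio of -1.09 (-1.96 to -0.27) on 41 and 19 UMIs, of which 5 cells held 58.5% and 52.6%. Without those cells the ratio was -0.90 (-2.25 to 0.35), an interval that includes 0. Macrophage-like cells were at 8.05 CPM (5.61 to 11.2) and 5.0 CPM (3.27 to 7.33), dendritic-like cells at 7.26 and 8.07 CPM and the Lyz1 Retnla cluster at 31.0 and 13.1 CPM, the last with 80.0% and 75.0% of the UMIs in 5 cells.

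Among FAP-like cells Il1r1 was distributed differently from the ligands. The Hsd11b1 Mme cluster, marked by an enzyme that activates glucocorticoids, was highest at 206 CPM (191 to 223) and 196 CPM (183 to 211). The Sfrp4 cluster held 125 and 116 CPM, the Clu Cyp2f2 cluster 93.8 and 136 CPM and the Pi16 Dpp4 cluster 81.7 and 111 CPM. The Hsd11b1 Mme cluster stood clear of the other 3 in both libraries, while the Sfrp4 and Clu Cyp2f2 clusters stood in opposite orders. After thinning, Il1r1 was found in 12% and 12.4% of FAP-like cells, against 43.8% and 48.2% before, and in none of the 40 and 57 B-like cells, which allows up to 8.81% and 6.27% and whose median depths were 2681 and 2821 UMIs beside 7474 and 8268.5 in FAP-like cells. Il33 and Il1r1 fell together in single FAP-like cells about as often as their shares multiply, in 0.77% of thinned cells against 0.82% in the library labelled WT and in 1.06% against 1.03% in the library labelled KO.

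**Figure D3:**
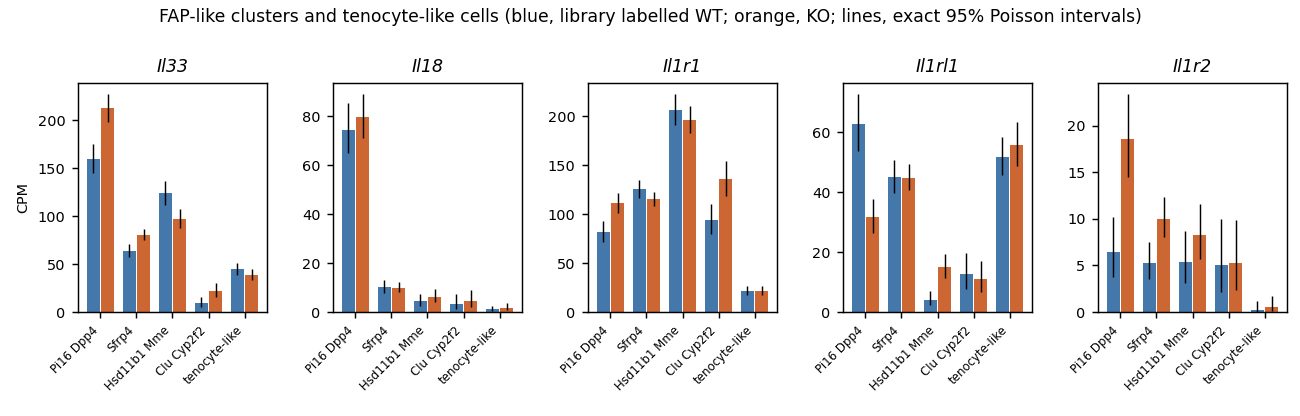
CPM (y axis, each panel on its own scale) of Il33, Il18, Il1r1, Il1rl1 and Il1r2 in 4 FAP-like clusters and in tenocyte-like cells, 1 colour per library, with lines for exact 95% Poisson intervals. Il33 and Il18 are highest in the Pi16 Dpp4 cluster at 159.9 and 212 CPM and 74.6 and 79.7 CPM, and Il1r1 in the Hsd11b1 Mme cluster at 206 and 196 CPM.

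Il1rap, the accessory chain shared by IL-1R1 and ST2, was highest in Schwann-like cells, at 175 CPM (151 to 202) and 187 CPM (160.4 to 217), clear of the other 11 types in both libraries. In the Schwann-like cluster marked by Col20a1 and Bche it was at 286 CPM (244 to 332) and 278 CPM (235 to 326), and Il33 there was at 17.1 and 7.46 CPM. Smooth muscle-like cells followed at 53.6 CPM (34.4 to 79.8) and 47.1 CPM (30.2 to 70.1), then dendritic-like cells at 27.0 and 25.1 CPM, pericyte-like cells at 18.9 and 16.0 CPM and FAP-like cells at 15.1 and 14.6 CPM, and the neighbours in this order overlapped in both libraries. In none of the 12 types did Il1rap differ by 1.5-fold between the libraries where it had 20 UMIs, and its log2 ratio in Schwann-like cells was 0.10 (-0.21 to 0.40). After thinning, 18.0% and 17.2% of Schwann-like cells held it, against 36.2% and 38.5% before and 0.676% and 0.953% of endothelial-like cells.

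Il1rl1, the IL-33 receptor, was highest in the small groups of type 2 immunity. ILC2-like cells held 1018 CPM (814 to 1257) and 1102 CPM (951 to 1270.0), a log2 ratio of 0.12 (-0.26 to 0.50), with a UMI in 89.5% and 97.1% of the cells. Mast-like cells held 719.7 CPM (451 to 1089.6) and 1854 CPM (1336 to 2506) on 22 and 42 UMIs, and 5 cells held 68.2% and 85.7% of them. The intervals of ILC2-like and mast-like cells overlapped in the library labelled WT only. By number of UMIs most Il1rl1 was stromal, with 44.0% and 43.9% in FAP-like cells at 35.2 CPM (32.1 to 38.6) and 32.7 CPM (30.1 to 35.4) and 24.2% and 16.6% in tenocyte-like cells at 51.8 CPM (45.6 to 58.5) and 55.8 CPM (48.8 to 63.5). Few stromal cells carried it: before thinning a UMI was found in 6.53% and 6.15% of FAP-like and 10.0% and 8.70% of tenocyte-like cells, and 5 of the latter held 54.3% and 56.7% of the UMIs. After thinning the shares were 1.95% and 1.33% and, in tenocyte-like cells, 2.3% and 2.74%, against 0 in B-like cells, with the same upper limits as for Il1r1. In the Pi16 Dpp4 cluster Il1rl1 was at 62.8 CPM (53.9 to 72.8) and 31.7 CPM (26.4 to 37.8), a log2 ratio of -0.99 (-1.33 to -0.65), with 56.8% and 35.8% of the UMIs in 5 cells, while the Sfrp4 cluster was at 45 and 44.9 CPM. The Hsd11b1 Mme cluster went the other way at 4.14 and 15.1 CPM, with a log2 ratio of 1.86 (0.98 to 2.85), with 92.3% and 76.7% of 13 and 60 UMIs in 5 cells.

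T-like cells held 7 and 34 Il1rl1 UMIs, at 12.9 CPM (5.17 to 26.5) and 63.3 CPM (43.8 to 88.4), a log2 ratio of 2.3 (1.10 to 3.72). These UMIs were mostly in cells with Foxp3, the transcription factor of regulatory T cells. In the library labelled WT 3 of 114 T-like cells had a Foxp3 UMI and carried 4 of the Il1rl1 UMIs. In the library labelled KO 6 of 115 had one and carried all 34, of which 1 cell held 13. The 111 and 109 T-like cells without a Foxp3 UMI carried 3, in 2 cells, and 0. Of the T-like cells with a Foxp3 UMI, 2 and 4 held an Il1rl1 UMI, so the T-like values rested on few cells in each library. Macrophage-like cells held Il1rl1 at 13.6 CPM (10.3 to 17.5) and 21.7 CPM (17.9 to 26.1), a log2 ratio of 0.68 (0.21 to 1.16), and dendritic-like cells at 17.6 CPM (10.3 to 28.2) and 34.1 CPM (24.1 to 46.8), a log2 ratio of 0.95 (0.09 to 1.87).

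**Figure D4:**
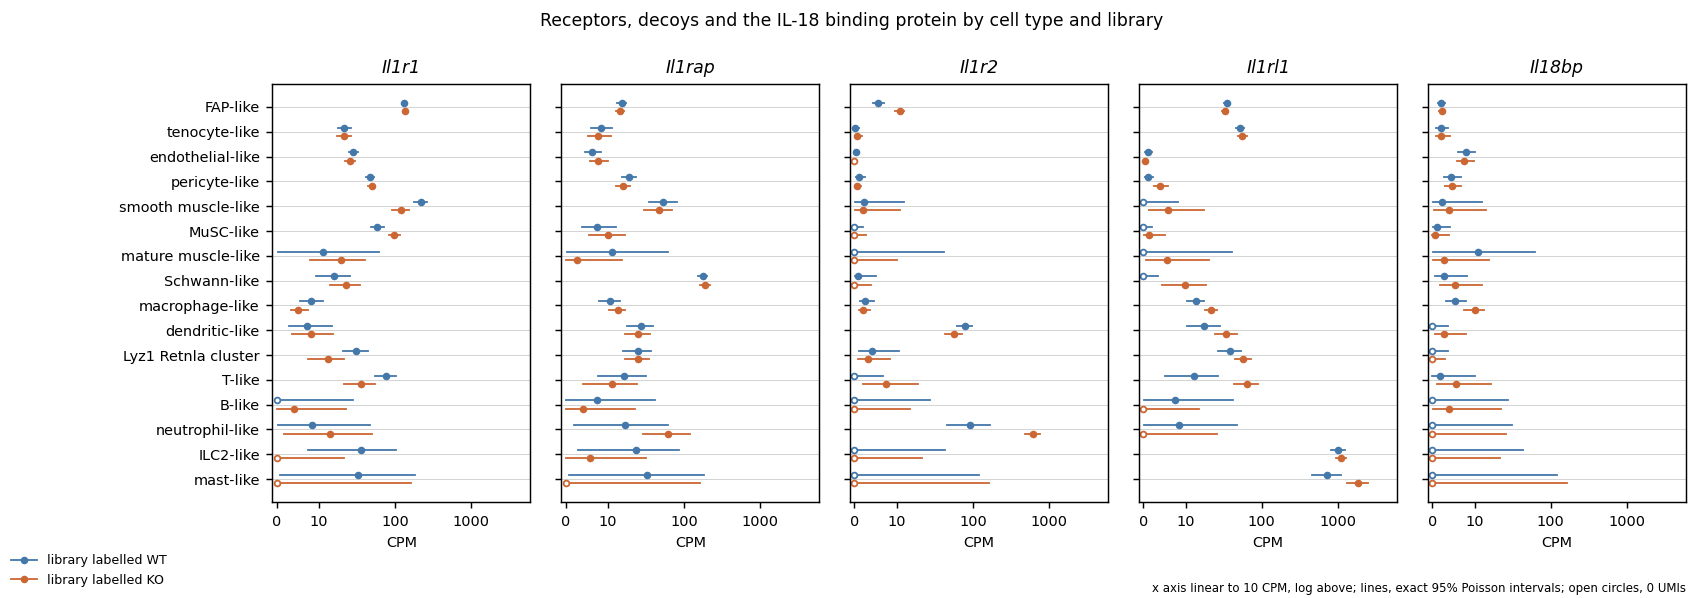
CPM of the 3 receptor chains, the decoy Il1r2 and the IL-18 binding protein (x axis, linear to 10 and logarithmic above) in each cell type and in the Lyz1 Retnla cluster, 1 colour per library, with lines for exact 95% Poisson intervals and open circles for 0 UMIs. Il1r1 is spread over stromal and mural cells, and Il1rap is highest in Schwann-like cells at 175 and 187 CPM.

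Il1r2, the decoy, had 2 kinds of carriers. Dendritic-like cells were the highest of the 12 types at 78.8 CPM (62.1 to 98.6) and 56.5 CPM (43.4 to 72.3), a log2 ratio of -0.48 (-0.98 to 0.02), and neutrophil-like cells held 92.8 CPM (46.3 to 166) and 611 CPM (490.3 to 753) on 11 and 88 UMIs, a log2 ratio of 2.72 (1.81 to 3.77). FAP-like cells had a lower level, 5.52 CPM (4.33 to 6.94) and 11 CPM (9.52 to 12.6), a log2 ratio of 0.99 (0.60 to 1.40), but 37.6% and 51.4% of all its UMIs. That ratio was 0.83 without the 5 highest cells of each library. The Pi16 Dpp4 cluster was at 6.42 and 18.6 CPM, the Sfrp4 cluster at 5.26 and 10.0 CPM and the Hsd11b1 Mme cluster at 5.41 and 8.28 CPM, all higher in the library labelled KO. Macrophage-like cells held 11 and 11 Il1r2 UMIs, and MuSC-like cells none, which allows up to 2.09 and 2.64 CPM.

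Il18bp was sparse, with 167 and 211 UMIs over all cells. Endothelial-like cells held 7.93 CPM (6.10 to 10.1) and 7.60 CPM (5.76 to 9.85), and macrophage-like cells 5.29 CPM (3.35 to 7.94) and 10.0 CPM (7.47 to 13.1), a log2 ratio of 0.92 (0.19 to 1.70) on 23 and 52 UMIs. These types overlapped in both libraries, so neither could be called the main source. The receptor chains of IL-18 were lymphoid: T-like cells held Il18r1 at 186 and 219.6 CPM and Il18rap at 130.4 and 160.1 CPM, each within 1.5-fold, whereas FAP-like cells, with most of the Il18 UMIs, held Il18r1 at 1.59 and 1.71 CPM. The T-like cluster was led by Cd3g and Trbc2 but also by Gzma, a marker of natural killer (NK) cells. Its mean log2 fold over the other cells was 5.02 for T and 3.74 for NK markers. No cluster was named NK, so T-like cells are not cleanly apart from NK cells. Il1rl2, the receptor of IL-36, was at 37.9 and 44.5 CPM in FAP-like cells.

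Differences between the libraries were counted by a rule of size, at least 20 UMIs over both and at least 1.5-fold between their CPM, which is no test. Over all cells 4 of the 10 genes passed it, Il1a (1.33 on the log2 scale), Il1b (1.52), Il1rn (1.16) and Il1r2 (0.85), all higher in the library labelled KO, where 6.02% of 15953 genes passed in that direction and 6.02% in the other. The other 6 lay between -0.06 for Il1rap and 0.37 for Il33. In macrophage-like cells 5 of 9 genes with enough UMIs were higher (Il1a, Il1b, Il1rn, Il18bp and Il1rl1) and Il1r1 was lower, against 6.26% of all genes higher and 10.1% lower, and the median of the 9 was 0.68 against -0.04 over all genes. In the Lyz1 Retnla cluster 5 of 8 were higher and 2 lower, against 11% and 14%. The higher ones were Il1a, Il1b, Il1rn, Il18 and Il1rl1 and the lower ones Il1r1 and Il33, the latter on 12 and 10 UMIs. In dendritic-like cells 4 of 7 were higher and 0 lower, against 13.9% and 11.5%, one of them Il33 on 5 and 16 UMIs. In FAP-like cells 2 of 9 were higher, Il1r2 and Il1rn, the latter on 6 and 19 UMIs, and 0 lower, against 5.26% and 8.48%. In MuSC-like cells Il1b and Il1r1 of 4 were higher and none lower, against 16.5% and 11.9%, and 14 of the 18 Il1b UMIs of the library labelled KO were in 1 cell. Over the 12 types 21 of 55 pairs of gene and type were higher and 4 lower, against 9.98% and 10.0% of such pairs over all genes, and without the 5 highest cells of each library 11 of 39 were higher and 4 lower, against 10.3% and 9.07% over all genes with the same cells left out. At 2-fold 15 of the 55 pairs passed in either direction, against 6.77% over all genes, and 2 of the 9 genes in macrophage-like cells, against 5.04%.

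**Figure D5:**
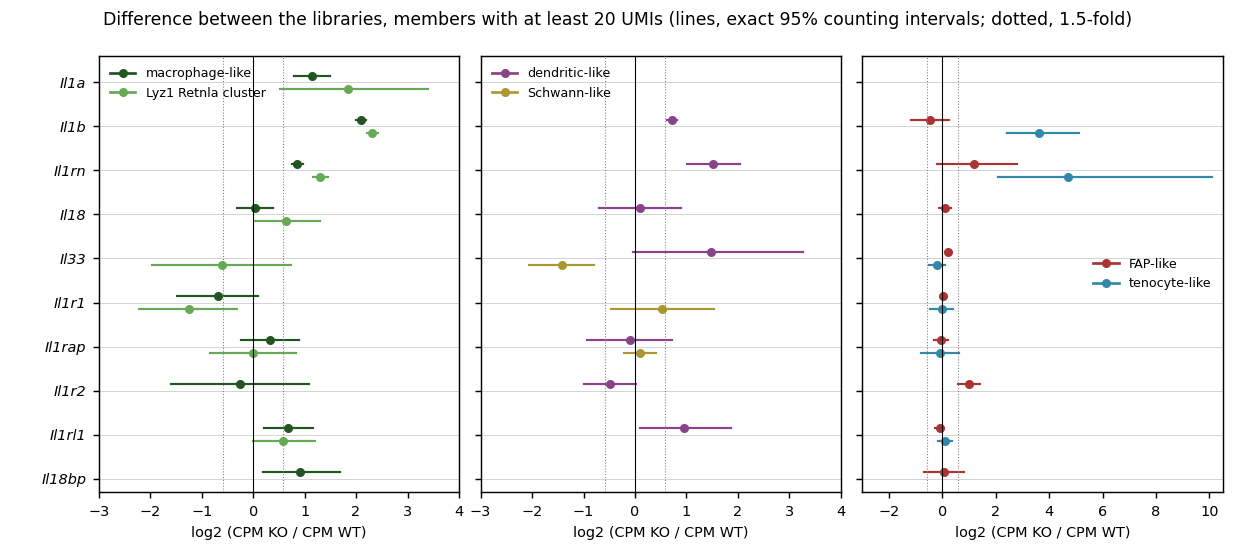
Log2 ratio of CPM, KO over WT (x axis, wider in the third panel), in macrophage-like cells and the Lyz1 Retnla cluster, in dendritic-like and Schwann-like cells, and in FAP-like and tenocyte-like cells, with lines for exact 95% counting intervals and dotted lines at 1.5-fold. Il1b and Il1rn lie to the right of 0 in the myeloid groups, and Il33 of Schwann-like cells lies at -1.41.

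Genes of the machinery that cuts pro-IL-1β and pro-IL-18 were counted by the same rule. Of 12 inflammasome and processing genes, 2 were higher and 0 lower in macrophage-like cells, against 6.26% and 10.1% of all genes. They were Nlrp1b on 8 and 19 UMIs and Nlrc4, a sensor of bacterial proteins, at 8.51 and 13.9 CPM. Nlrp3, the sensor most tied to IL-1β, was at 299.9 and 369 CPM there and Casp1, the protease that cuts pro-IL-1β, at 46.7 and 44.5 CPM. In the Lyz1 Retnla cluster 2 of 9 were higher and 1 lower, against 11% and 14% of all genes. Nlrp3 was at 92.0 and 212 CPM in that cluster, with a log2 ratio of 1.2 (0.85 to 1.57), and Mefv at 26.9 and 52.5 CPM. Aim2 was the lower one at 26.9 and 16.4 CPM, with a log2 ratio of -0.71 (-1.63 to 0.19). In dendritic-like cells 4 of 10 were higher and 0 lower, against 13.9% and 11.5% of all genes. They were led by Casp1 at 17.6 and 31.4 CPM, Gsdme at 8.29 and 14.4 CPM and Mefv at 48.7 and 79.8 CPM. Casp1 rested on 17 and 35 UMIs and Gsdme on 8 and 16. Their log2 ratios were 0.83 (-0.04 to 1.76) and 0.79 (-0.52 to 2.22), with intervals that include 0. Casp4, which encodes caspase-11, the sensor of cytosolic lipopolysaccharide, was higher in 7 of the 12 types, among them FAP-like cells at 85.1 and 149 CPM, MuSC-like cells at 32.9 and 115 CPM and tenocyte-like cells at 22.2 and 40.6 CPM, and in neutrophil-like cells. Its log2 ratio was 0.54 in pericyte-like and -0.24 in macrophage-like cells, within 1.5-fold. Of 15 genes of receptor signalling 4 were higher and 0 lower in macrophage-like cells, against 6.26% and 10.1% of all genes. Among the 4 were the NF-κB subunits Rela at 105 and 191 CPM and Nfkb1 at 433 and 718 CPM. The adaptor Myd88 was another, at 62.3 and 101 CPM. In FAP-like cells 0 of 15 were higher and 0 lower, against 5.26% and 8.48% of all genes, with Myd88 at 76.7 and 114 CPM. In MuSC-like cells 3 of 11 were higher, led by Nfkb1 at 291 and 607 CPM, and 0 lower, against 16.5% and 11.9%.

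Genes that IL-1 is known to induce were counted in each of the 12 types, whether or not it carried much Il1r1. In FAP-like cells 11 of 18 were higher and 0 lower, with a median log2 ratio of 0.74 against -0.06 over all genes, of which 5.26% were higher and 8.48% lower. The largest ratios were those of the acute-phase gene Saa3 on 2 and 21 UMIs, the adhesion gene Sele on 7 and 48 UMIs and the cytokine Il6 at 184 and 599 CPM. In tenocyte-like cells 10 of 16 were higher and 1 lower with a median of 1.09, against 10.8% and 5.96% of all genes, and the largest ratios were those of the chemokines Cxcl5 on 3 and 49 UMIs and Ccl7 at 34.8 and 127 CPM and of the NF-κB inhibitor Tnfaip3 at 8.49 and 29.7 CPM. In MuSC-like cells 10 of 13 were higher and 0 lower with a median of 1.37, against 16.5% and 11.9% of all genes. Among the higher were the neutrophil attractants Cxcl2 at 25.5 and 435 CPM and Cxcl5 at 6.80 and 32.2 CPM. The RNase Zc3h12a was another, at 14.2 and 62.9 CPM. Of the other carriers of Il1r1, 8 of 11 were higher and 0 lower in smooth muscle-like cells, against 13.2% and 13.0% of all genes. 2 of 15 were higher and 2 lower in pericyte-like cells, which held more Il1r1 than tenocyte-like cells, against 7.56% and 5.98%, and 4 of 15 were higher and 0 lower in endothelial-like cells, against 6.29% and 5.35%. 5 of 10 were higher and 1 lower in T-like cells, against 12% and 15.8%. In the remaining types outside the myeloid groups, 7 of 13 were higher and 1 lower in Schwann-like cells, against 11% and 8.78%, 4 of 6 were higher and 0 lower in mature muscle-like cells, against 20.5% and 29.7%, and 2 of 6 were higher and 0 lower in B-like cells, against 14% and 25.9%. In macrophage-like cells 2 of 13 were higher and 1 lower, against 6.26% and 10.1% of all genes. The higher ones were Csf3 on 7 and 52 UMIs and Il6 at 12.2 and 21.9 CPM. Cxcl1, another neutrophil attractant, was lower at 642 and 244 CPM, with a log2 ratio of -1.40 (-1.49 to -1.30). In the Lyz1 Retnla cluster 3 of 11 were higher and 1 lower, against 11% and 14% of all genes. The prostaglandin synthase Ptgs2 was at 51.7 and 267 CPM, Il6 at 71.3 and 354 CPM and Cxcl1 at 314 and 145 CPM. In dendritic-like cells 2 of 11 were higher and 1 lower, against 13.9% and 11.5%, with Cxcl2 at 42.5 and 231 CPM.

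Many of these genes are also known to answer to other signals. Heat-shock genes, which respond to stress and to tissue handling, were higher in the same cells: Hspa1a, Hspa1b and Dnajb1 had log2 ratios of 1.82, 1.95 and 1.71 in FAP-like cells and 1.66, 2.03 and 1.97 in MuSC-like cells. In macrophage-like cells the 3 were at 0.20, 0.66 and 0.96 and the immediate early gene Fosb at -0.68. In dendritic-like cells, where Il1b was also higher, the heat-shock genes were at 1.67, 2.02 and 1.05, and in the Lyz1 Retnla cluster at 0.59, 1.13 and 0.48, with Fosb at -1.21. The list of 14 early and heat-shock genes had a median of -0.13 in macrophage-like, 0.25 in dendritic-like, 0.25 in FAP-like and 0.71 in MuSC-like cells. Their part in the values of Il1b and of its response genes was not tested.

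The genes most like each of the 10 were taken by Pearson's r of log2 CPM over 24 points, the 12 types in both libraries, among 11936 genes. Il1b was most like Tnip3, an inhibitor of NF-κB signalling, with r of 0.98, and Mefv, which encodes the sensor pyrin, with 0.97. Il1rn was most like Cd300c2 with 0.97, Il1a like the chemokine receptor Ccr1 with 0.97, and Il1r2 like Ccl22, a chemokine of mature dendritic cells, with 0.95. For the stromal and glial genes the values were 0.91 for Il33 with Ephb2, 0.90 for Il18 with Emilin2, 0.87 for Il1r1 with Morrbid and 0.93 for Il1rap with Sbspon. Il1rl1 (0.84 with Pqlc3) and Il18bp (0.77 with Blvra) had the lowest values. The points share libraries and depths, so these values are a description.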

How the data were processed

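Single cells of both libraries were measured with the 10x 5′ kit, version 2. The submitters' processing notes name Cell Ranger 2.1.1 and the mouse genome build mm10, while the study's methods name another version of that tool, and the methods state that doublets were removed with DoubletFinder. The deposited table holds, for each gene and cell, the natural log of 1 plus the UMIs scaled to a fixed total per cell, as the authors normalized it. Its number of cells is the one the study's results give after quality control and is under the one in its methods. Because a cell's smallest value above 0 is worth 1 UMI, the UMIs were recovered from it. The largest distance from a whole number was 0.241 over 29528482 values above 0. The genotype of a cell was read from the end of its barcode, which the design text of the series ties to the genotype, and nothing measured here checks that tie. UMIs totalled 44758518 for WT and 50930011 for KO, and 686 and 633 cells had under 1000. No mitochondrial gene was listed and no column of another sample was left unused (0).

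Cells were clustered by the Louvain method in igraph 0.11.9 on 30 principal components of 2000 variable genes, after Harmony integration of the libraries. The graph used 20 neighbours, and a resolution of 0.8 gave 30 clusters. The 75 genes of the lists reported here were kept out of the variable genes. Clusters were named from marker lists, and parts of the naming rule (the share of markers needed, how mixed and shallow clusters are treated) were set after the clusters had been seen. Scrublet, run in Scanpy 1.11.5, marked 101 and 109 cells (1.59% and 1.54%) as doublets, which were kept. The values of some clusters are not reported here. The members and lists were chosen with earlier results of these data known.

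CPM intervals are exact Poisson intervals, share intervals are Clopper-Pearson, and log2 ratios have an exact interval conditional on the summed UMIs. Shares of cells were compared after thinning each cell to 1000 UMIs, leaving out shallower cells. With 1 library per genotype no test was run. All 10 members are named, with the list genes among the 3 of largest absolute log2 ratio at 20 UMIs or more in a cell type, the IL-18 receptor chains, Gsdme, and for each member genes among the 3 of highest Pearson's r. Foxp3, Il1rl2 and, where outside those 3, Nlrp3, Casp1, Casp4 and Hspa1a in macrophage-like cells and Casp4 in pericyte-like cells, Hspa1a and Dnajb1 in the Lyz1 Retnla cluster were chosen after their values were seen. Gene coordinates are those of the GENCODE annotation of GRCm38. Promoters are of GRCm38.p6, the RefSeq release of the build named mm10. Computations used Python 3.11.15, numpy 2.4.6, scipy 1.17.1, pandas 2.3.3 and scikit-learn 1.9.0. The recovery of UMIs and the log2 ratios with their intervals were tested on simulated data, and the thinning was not.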

Additional observations from a re-analysis of the deposited data

Results flagged for a closer look

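Il1r1 had opposite directions between the libraries in different cell types. Its log2 ratio, KO over WT, was 0.75 in MuSC-like cells, -0.88 in smooth muscle-like cells and -1.09 in T-like cells, and each of the 3 counting intervals excluded 0. The difference between the types was not tested, since each genotype was 1 library. Without the 5 highest cells of each library the ratios were 0.80, -0.74 and -0.90. The last of these, in T-like cells, had an interval of -2.25 to 0.35, which includes 0. After thinning, 4.46% and 4.39% of T-like cells held an Il1r1 UMI, so the share of cells was alike in the libraries.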

How the results depend on the processing

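No paired analysis was possible because each genotype was 1 library. For 21 results, the ratios in the main cell types and those described most closely, 166 ratios were recomputed: 153 stayed within the counting interval, 13 lay outside it, and none of those past 1.5-fold changed sign. Within 1.5-fold, Il1rl1 in tenocyte-like cells (0.11) was -0.03 in a finer clustering and -0.06 without integration. Over the other pairs of gene and type, leaving out the 5 highest cells turned Il1b in pericyte-like cells from 0.58 to -0.10, Il1rn there from 1.22 to -0.53 on 9 UMIs, Il1b in FAP-like cells from -0.46 to UMIs in the library labelled KO alone, and Il1rap from -0.10 to 0.10 in dendritic-like, from -0.19 to 0.10 in smooth muscle-like cells and from -0.01 to 0.63 in the Lyz1 Retnla cluster. For Il1b in the Lyz1 Retnla cluster the log2 ratio was 2.05 without integration, 2.57 as a mean over cells and 3.28 without the 5 highest cells of each library, an alternative chosen after seeing the data. For Il1b in dendritic-like cells it was 1.47 in a coarser clustering, 1.02 as a mean over cells and 1.07 without the 5 cells, and in macrophage-like cells 2.29 without them. For Il1rn it was 1.45 as a mean over cells and 1.55 without the 5 cells in the Lyz1 Retnla cluster, and 1.07 without them in macrophage-like cells. The share of macrophage-like cells with Il1b was 24.4% and 36.4% with no thinning and 16.2% and 31.4% at 2000 UMIs. At 2-fold in place of 1.5-fold, 15 of the 55 pairs of gene and type and 2 of the 9 genes in macrophage-like cells passed, against 6.77% and 5.04% over all genes. At 1.5-fold without the 5 highest cells of each library, 11 of 39 pairs were higher and 4 lower. Over all genes treated alike, 10.3% of pairs were higher and 9.07% lower. In the coarser clustering 6 of the 10 genes kept the type with the highest level, and there Il1rn and Il18 were highest in dendritic-like, Il18bp in endothelial-like and Il1rl1 in T-like cells. Il1r2 moved to neutrophil-like cells in a finer clustering and Il1r1 to FAP-like cells without integration, and without integration or as a mean over cells Il18 moved to dendritic-like and Il18bp to endothelial-like cells. The cause of these moves was not tested.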
